A study of Rattus norvegicus with 18 samples.

Results

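Expression of 10 genes of prostaglandin synthesis, breakdown and reception (Pla2g4a, Ptgs1, Ptgs2, Ptges, Ptgis, Hpgd, Ptger2, Ptger4, Ptgfr and Ptgir), out of 16988 measured, was followed in WB-F344 cells, a stem-like epithelial line from rat liver. Confluent dishes received 100 nM PCB126 (3,3',4,4',5-pentachlorobiphenyl, a dioxin-like ligand of the aryl hydrocarbon receptor, AhR) or the vehicle alone, 0.1% DMSO, for 6, 24 or 72 h. Each of the 6 combinations has 3 samples described as independent repeats, with 1 exon array each and 18 arrays in all. The labels give no more about the repeats, and the spread behind each p-value may therefore be partly technical. The 10 genes were taken by symbol, and a gene's value on an array is the median over the probe sets that the platform annotation pairs with that symbol alone, 103 probe sets in all. The values are log2 expression on the RMA scale, so a difference of 1 is a 2-fold change.

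Prostaglandins are short-lived lipid signals made from arachidonic acid. Cytosolic phospholipase A2 (Pla2g4a) releases arachidonic acid from membranes, the cyclooxygenases Ptgs1 and Ptgs2 turn it into a shared precursor, and terminal enzymes such as the prostaglandin E synthase Ptges and the prostacyclin synthase Ptgis finish the product. Hpgd starts the breakdown of prostaglandins, and the products act through G protein-coupled receptors, here those for prostaglandin E (Ptger2 and Ptger4), prostaglandin F (Ptgfr) and prostacyclin (Ptgir). In liver, prostaglandins are known mainly as signals from macrophages and other non-parenchymal cells to hepatocytes, and dioxin-like compounds are known to induce Ptgs2 in several cell types.

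The classical AhR targets were read as a check of exposure. Cyp1a1, the AhR-induced cytochrome P450, differed from DMSO by 2.90, 5.55 and 6.22 on the log2 scale at 6, 24 and 72 h, and the aldehyde dehydrogenase Aldh3a1 by 4.63, 4.43 and 5.91. Array medians over genes lay between 6.19 and 6.54, and the spread of relative log expression was widest on replicates 1 and 2 of PCB126 at 72 h (interquartile range 0.461 and 0.475, against 0.275 to 0.368 on the other 16 arrays). The 5 markers of a liver epithelial line were all above 4.03, the median level of all probe sets, in at least 1 group. So were 2 of 5 measured hepatocyte markers, 4 of 7 macrophage markers, 4 of 4 endothelial markers and 3 of 4 stellate cell markers. That level lies below the array medians over genes, so passing it does not show that a marker is expressed. The highest gene mean was 4.38 for hepatocyte, 5.00 for macrophage, 7.10 for endothelial (Tek) and 8.69 for stellate cell markers (Des). The macrophage markers, which stand for a known source of prostaglandins in liver, averaged 3.90 to 4.20 on the DMSO arrays and 3.93 to 4.27 on the PCB126 arrays, with 0 of 7 called. The endothelial markers averaged 5.32 to 5.65 with DMSO and 5.06 to 5.36 with PCB126, and 1 of them, Tek, fell at 24 and 72 h (-1.31 and -1.53). Of the stellate cell markers, which averaged 5.29 to 5.93 with DMSO and 5.41 to 5.92 with PCB126, Rgs5 fell at 24 h (-0.88). The Rgs5 mean there was 4.90 with DMSO and 4.02 with PCB126, near the probe set median of 4.03. None of the hepatocyte markers was called (3.56 to 3.96 with DMSO, 3.65 to 4.02 with PCB126). Of the 5 epithelial markers 4 were called at 1 time or more, while their array means ran from 7.96 to 8.40 with DMSO and from 8.02 to 8.40 with PCB126. The keratin gene Krt19 fell at 6, 24 and 72 h (-1.01, -0.95 and -1.37) and Krt18 at 24 h (-0.69). The Krt18 mean at 24 h was 4.68 with DMSO and 3.99 with PCB126, also near 4.03. In contrast, Krt8 rose at 72 h (1.08) and the vimentin gene Vim at 24 and 72 h (0.67 and 1.15). The part of these markers in the results below was not tested. In such whole-culture RNA, fewer cells of a type and less RNA per cell cannot be told apart.

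The stretch before the annotated start is shown for both cyclooxygenases and for the genes called with PCB126 on average over the times, because AhR binds DNA with its partner ARNT at sites that hold GCGTG. Each line gives the 250 bases before the start in RefSeq's GRCr8 build, 5′ to 3′ on the gene's strand, and capitals mark GCGTG on either strand (CACGC is its reverse complement). Ptgs2 is on the plus strand at chr13:64713813-64714062, Pla2g4a on the minus strand at chr13:64572353-64572602, Hpgd on the minus strand at chr16:39034832-39035081 and Ptgs1 on the plus strand at chr3:39981169-39981418.
Ptgs2: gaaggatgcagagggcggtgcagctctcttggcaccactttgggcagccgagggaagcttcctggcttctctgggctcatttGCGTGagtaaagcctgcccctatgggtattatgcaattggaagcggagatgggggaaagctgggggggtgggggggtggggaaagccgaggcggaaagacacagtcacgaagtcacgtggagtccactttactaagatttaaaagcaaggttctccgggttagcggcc
Pla2g4a: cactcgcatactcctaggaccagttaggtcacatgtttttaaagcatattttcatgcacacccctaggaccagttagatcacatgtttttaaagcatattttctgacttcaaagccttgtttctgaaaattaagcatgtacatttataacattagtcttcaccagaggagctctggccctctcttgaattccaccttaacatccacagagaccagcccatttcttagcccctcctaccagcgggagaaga
Hpgd: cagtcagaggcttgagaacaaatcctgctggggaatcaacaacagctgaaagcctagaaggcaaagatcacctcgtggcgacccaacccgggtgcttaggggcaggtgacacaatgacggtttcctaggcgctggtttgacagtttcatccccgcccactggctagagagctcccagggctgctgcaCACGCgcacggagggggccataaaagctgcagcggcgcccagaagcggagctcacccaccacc
Ptgs1: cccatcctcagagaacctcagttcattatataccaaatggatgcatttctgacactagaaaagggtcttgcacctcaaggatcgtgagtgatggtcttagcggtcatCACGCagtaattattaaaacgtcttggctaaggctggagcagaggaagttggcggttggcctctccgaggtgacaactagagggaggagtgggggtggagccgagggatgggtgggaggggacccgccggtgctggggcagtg

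Ptgs2 holds 1 match, whose first base lies 168 bases before the start, Hpgd 1 at 63 bases and Ptgs1 1 at 143 bases, while the Pla2g4a stretch holds none. Over all 33469 stretches of the same length, 25.9% hold GCGTG, and of the 9 genes with an entry in the promoter table (Ptgis has none) 3 do. The palindrome CACGTG lies 55 bases before the Ptgs2 start and is held by 5.6% of all stretches. The other motifs searched on both strands were TGACG, held by 18.2% of all stretches and by the Hpgd stretch, and TATAAA, held by 12.9% and by the Pla2g4a stretch. CACGTG contains no GCGTG, and no match overlapped another motif's in these 4 stretches. A match describes the letters alone. Ptgs2 and Pla2g4a are neighbours on chromosome 13, with 2 annotated genes between them (a pseudogene and the lncRNA gene Ptgs2os) and no protein-coding one.

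Ptgs2, the inducible cyclooxygenase, rose with PCB126 and was called at each of 6, 24 and 72 h. It was the only 1 of the 10 genes called at any of these times. At 6 h its values were 6.21, 6.48 and 6.35 with DMSO and 7.21, 7.64 and 7.28 with PCB126. At 24 h they were 6.03, 5.96 and 6.32 against 7.47, 7.39 and 7.50, and at 72 h 6.10, 6.01 and 6.19 against 8.15, 7.62 and 8.01. Every treated array lay above every DMSO array of the series, and the groups did not overlap at any time. The difference was 1.03 at 6 h (SE 0.152, 2.05-fold, adjusted p = 0.00348), 1.35 at 24 h (2.55-fold, adjusted p = 5.19e-05) and 1.82 at 72 h (3.54-fold, adjusted p = 8.83e-07), all by limma with Benjamini-Hochberg adjustment over 16988 genes. Fitted with the 6 arrays of 6 h alone, the call at 6 h did not hold (adjusted p = 0.107). Among all genes, 34, 31 and 24 rose by at least as much as Ptgs2 at 6, 24 and 72 h, Ptgs2 itself included.

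The genes called in either direction made up 0.494% of all genes at 6 h, 4.84% at 24 h and 7.44% at 72 h, against 1 of the 10 prostaglandin genes at each time. The genes called higher made up 0.253%, 1.7% and 3.3%, and those called lower 0.241%, 3.14% and 4.14%. That 1 gene was Ptgs2 each time, and the other 9 did not pass at 6, 24 or 72 h. The median difference over the 10 genes was 0.21, 0.17 and 0.00063, beside -0.0068, -0.022 and 0.0015 over all genes.

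**Figure D1:**
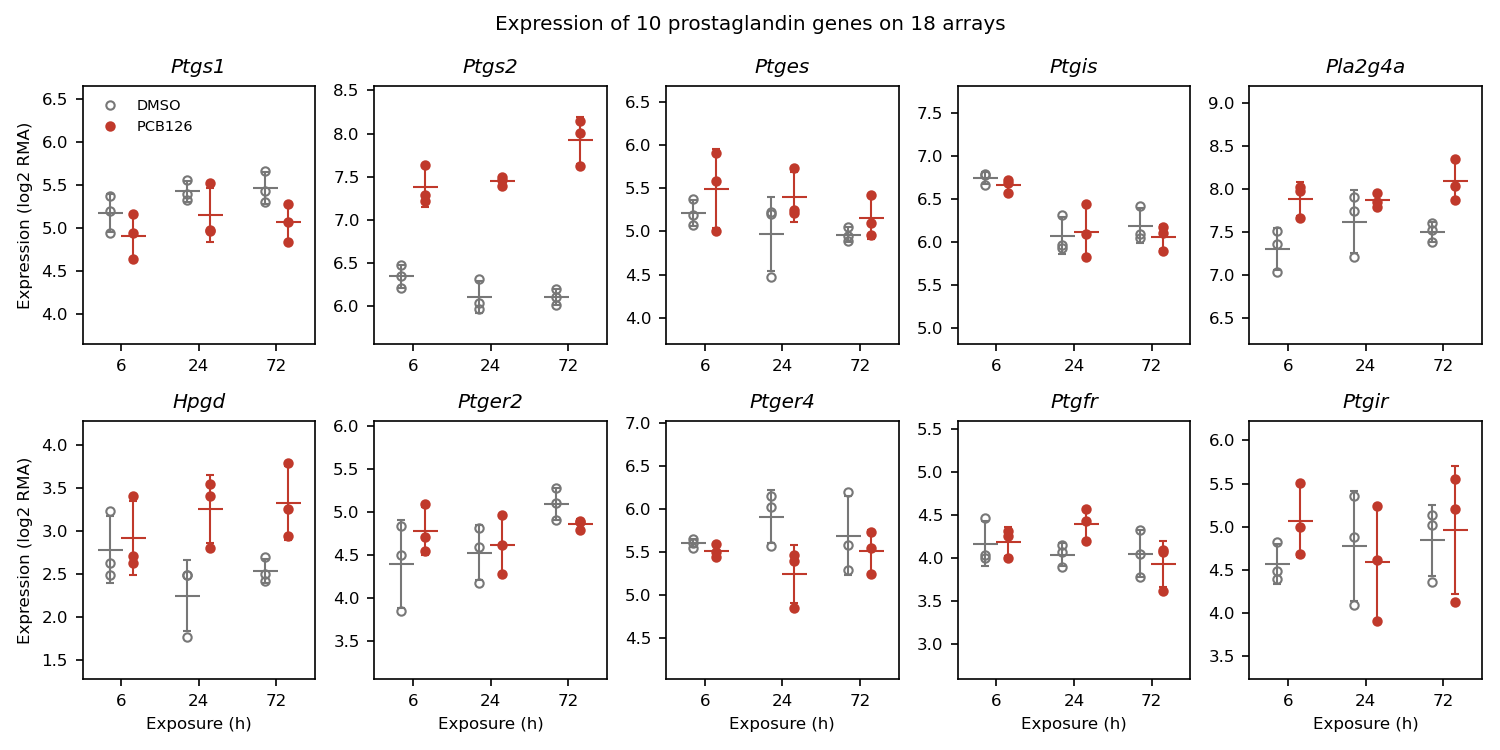
Expression of the 10 genes (y axis, log2 RMA value, the same span in every panel) by exposure time (x axis, h), with DMSO arrays as open grey circles, PCB126 arrays as filled red circles and the group mean with its SD as bars (n = 3 arrays). Ptgs2 lies between 5.96 and 6.48 on the DMSO arrays and between 7.21 and 8.15 on the PCB126 arrays, while the groups of the other genes overlap at 1 time or more.

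By group mean the order of Ptgs2 levels was DMSO at 24 h and at 72 h (6.10 ± 0.19 and 6.10 ± 0.09, SD, n = 3 arrays each), DMSO at 6 h (6.34 ± 0.13), PCB126 at 6 h (7.38 ± 0.23), PCB126 at 24 h (7.45 ± 0.06) and PCB126 at 72 h (7.92 ± 0.27). DMSO arrays of 24 h overlapped those of 6 and 72 h, and DMSO arrays of 72 h ended just below those of 6 h (highest 6.19 against lowest 6.21). PCB126 arrays of 6 h overlapped those of both later times, whereas the arrays of 72 h all lay above those of 24 h (lowest 7.62 against highest 7.50). The PCB126 effect was larger by 0.32 at 24 h and by 0.79 at 72 h than at 6 h. The test of a change between the times had an unadjusted p of 0.00748 and did not pass over all genes (limma F-test, adjusted p = 0.272, where 0.565% of all genes were called).

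The probe sets of Ptgs2 did not all move alike. At 6 h 14 of its 15 probe sets were higher with PCB126, at 24 h all 15 and at 72 h 14, with median differences of 1.11, 1.70 and 1.97. At 72 h 11 probe sets differed by 1.68 to 2.58, and the other 4 by -0.16 to 0.42. Of those 4, only 1 had a mean below the median level of all probe sets. Which exon a probe set covers was not used here.

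Pla2g4a, which releases the arachidonic acid that the cyclooxygenases use, was higher on average over the times. Its values at 6 h were 7.52, 7.36 and 7.04 with DMSO and 7.97, 8.02 and 7.66 with PCB126. At 24 h they were 7.91, 7.21 and 7.74 against 7.80, 7.85 and 7.96, and at 72 h 7.52, 7.38 and 7.61 against 8.35, 7.88 and 8.04. The groups did not overlap at 6 and 72 h and overlapped at 24 h. The differences were 0.58, 0.25 and 0.59 (SE 0.182 each, adjusted p = 0.292, 0.600 and 0.0652), so none was called. The difference at 72 h was called without replicate 2 of DMSO at 24 h (adjusted p = 0.0309). The average over the 3 times was 0.47 (95% interval 0.25 to 0.69) and was called by limma (adjusted p = 0.00651).

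Hpgd, the enzyme that inactivates prostaglandins, was the other gene called on average beside Ptgs2 and Pla2g4a. Its values at 24 h were 2.48, 2.48 and 1.77 with DMSO and 2.80, 3.54 and 3.40 with PCB126. At 72 h they were 2.69, 2.41 and 2.49 against 3.25, 2.93 and 3.78, and at 6 h 3.22, 2.63 and 2.49 against 2.63, 3.40 and 2.71. The groups did not overlap at 24 and 72 h and overlapped at 6 h. The differences were 0.13, 1.002 and 0.79 at 6, 24 and 72 h (SE 0.282 each, adjusted p = 0.954, 0.0540 and 0.117), and the average was 0.64 (95% interval 0.30 to 0.99, adjusted p = 0.0153). The difference at 24 h was called when 1 of 5 arrays was left out: DMSO 6 h replicate 1 (adjusted p = 0.0449), PCB126 6 h replicate 2 (0.0402), PCB126 24 h replicate 1 (0.0383), or PCB126 72 h replicate 2 (0.0459) or 3 (0.0432). All these values lay below the median level of all probe sets (4.03). On average over the times 3 of the 10 genes were higher and 0 lower, where 11.8% of all genes were called, 4.46% higher and 7.38% lower. Ptgs2 averaged 1.40 in that comparison (adjusted p = 1.74e-08).

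For Pla2g4a and Hpgd the size depended on how probe sets were summarised. Pla2g4a was higher on 20 of 21 probe sets at 6 h and at 72 h and on 14 at 24 h, but by a median of 0.36, 0.40 and 0.17. With the mean over probe sets in place of the median its average effect was 0.28 and was not called (adjusted p = 0.0704). Of the 9 Hpgd probe sets, 8 were above 0 at 24 h and 7 at 72 h, by a median of 0.26 and 0.36, and 1 had a mean above the median level of all probe sets. With the mean over probe sets the average effect of Hpgd was 0.24 (adjusted p = 0.0190), and on that 1 brighter probe set alone it was 0.33 (adjusted p = 0.562).

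**Figure D2:**
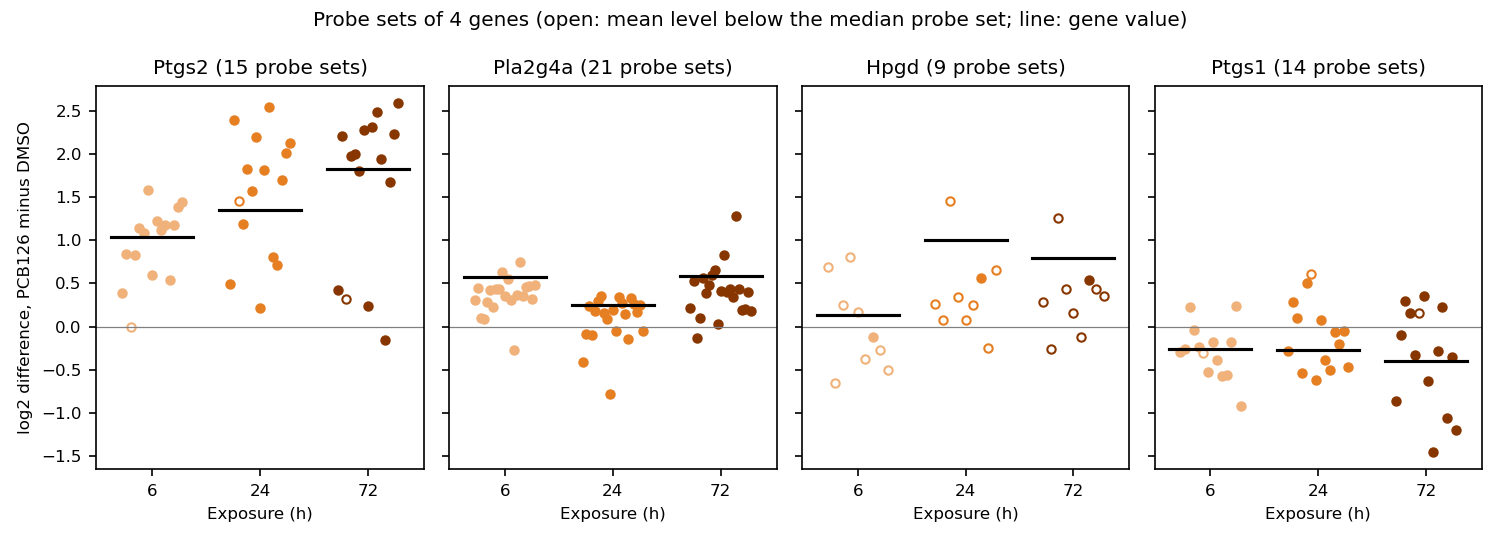
Difference between PCB126 and DMSO group means (y axis, log2) for each probe set of 4 genes by exposure time (x axis, h), with filled points for probe sets whose mean is above the median probe set level and open points for the rest. Black lines give the difference of the gene values. At 72 h 11 of 15 Ptgs2 probe sets lie between 1.68 and 2.58 and the other 4 between -0.16 and 0.42. All 21 Pla2g4a probe sets lie between -0.13 and 1.28 at that time.

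Ptgs1, the cyclooxygenase that most tissues make constantly, was not called at any time. Its values at 72 h were 5.66, 5.43 and 5.30 with DMSO and 4.84, 5.28 and 5.07 with PCB126, so that the groups did not overlap. At 6 h they were 5.37, 4.94 and 5.20 against 4.94, 4.63 and 5.16, and at 24 h 5.32, 5.56 and 5.39 against 4.96, 5.52 and 4.97, with overlap at both times. The differences were -0.26, -0.27 and -0.40 (SE 0.183, adjusted p = 0.781, 0.552 and 0.249), with a 95% interval of -0.79 to -0.012 at 72 h. Of the 14 Ptgs1 probe sets, 12 were below 0 at 6 h, 9 at 24 h and 9 at 72 h, while the rest were above 0. At 72 h they ran from -1.45 to 0.35. The average of Ptgs1 over the times was -0.31 (95% interval -0.53 to -0.087) and was not called (adjusted p = 0.0707). It was called with the mean over probe sets (-0.25, adjusted p = 0.0279), among bright genes (adjusted p = 0.0487), and without replicate 2 of PCB126 at 24 h, replicate 2 at 72 h or replicate 3 at 6 h (adjusted p = 0.0225, 0.0497 and 0.0484).

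The terminal synthases were not called at any time. Ptges, the inducible partner of Ptgs2 in prostaglandin E synthesis, had values of 5.08, 5.37 and 5.20 with DMSO and 5.58, 5.01 and 5.91 with PCB126 at 6 h. At 24 h they were 4.47, 5.22 and 5.21 against 5.25, 5.21 and 5.74, and at 72 h 4.94, 4.89 and 5.06 against 4.95, 5.10 and 5.43. The low DMSO array of 24 h stood apart from the other two. Its differences were 0.28, 0.43 and 0.20 with overlapping groups, and the 95% interval at 24 h ran from -0.063 to 0.93. The difference at 24 h was 0.086 with the mean over its 4 probe sets and 0.62 with array weights, the lowest and highest of 12 alternatives. Leaving out 1 array moved it between 0.19 (without replicate 1 of DMSO at 24 h) and 0.56, and without replicate 3 of PCB126 at 24 h it was 0.26. None of these settings gave a call. Ptgis, which makes prostacyclin, differed by -0.09, 0.05 and -0.13 between treatments, with 95% intervals of -0.43 to 0.24, -0.29 to 0.38 and -0.47 to 0.20.

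Ptgis was the gene of the 10 with an unadjusted p under 0.05 in both comparisons of DMSO cultures over time. In DMSO its values were 6.78, 6.66 and 6.79 at 6 h, 5.93, 6.32 and 5.96 at 24 h and 6.09, 6.42 and 6.05 at 72 h. The arrays of 6 h all lay above those of the later times. In PCB126 they were 6.57, 6.71 and 6.68 at 6 h, 6.09, 6.44 and 5.83 at 24 h and 5.89, 6.17 and 6.10 at 72 h, again with every array of 6 h above the later ones. In the DMSO cultures Ptgis stood at -0.68 at 24 h (adjusted p = 0.304) and at -0.56 at 72 h (adjusted p = 0.0592) relative to 6 h, and neither was called. Both comparisons share the DMSO arrays of 6 h.

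No other gene of the 10 passed in the DMSO cultures either. Between 24 and 6 h limma called 0 of the 10 and 0 of 16988 genes (0%). At an unadjusted p under 0.05 it gave 1 of the 10, which was Ptgis, and 987 of all genes (5.81%). Between 72 and 6 h it called 0 of the 10, where 4.14% of all genes were called (0.865% higher, 3.27% lower), and an unadjusted p under 0.05 gave 2, Ptgis and the receptor gene Ptger2, beside 3165 of all genes (18.6%). Arrays that did not overlap were 0 of 10 genes higher and 2 lower at 24 h (Ptgis and Hpgd), beside 5.09% and 7.46% of all genes, and 1 higher (Ptger2) and 3 lower (Ptgis, Ptgs2 and Ptges) at 72 h, beside 7.43% and 18.6%. Ptger2 went from 3.84, 4.50 and 4.84 at 6 h to 5.27, 4.90 and 5.11 at 72 h, a difference of 0.70 (adjusted p = 0.118). With DMSO, Ptgs2 differed by -0.24 at both later times (adjusted p = 0.927 at 24 h and 0.432 at 72 h).

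The 4 receptor genes were not called with PCB126 at any time. Ptger4, a prostaglandin E receptor that raises cyclic AMP, had values at 24 h of 5.57, 6.02 and 6.15 with DMSO and 5.40, 5.47 and 4.85 with PCB126. These groups did not overlap, and all 7 of its probe sets were below 0 (-0.98 to -0.37). The difference was -0.67 (SE 0.219, adjusted p = 0.105), and it passed with the mean over probe sets (-0.60, adjusted p = 0.0408) and on bright probe sets (-0.67, adjusted p = 0.0298). At 6 and 72 h Ptger4 differed by -0.09 and -0.18 with overlapping groups. The average over the times was -0.31 (95% interval -0.58 to -0.045) and was not called (adjusted p = 0.137). It was called with the mean over probe sets (-0.36, adjusted p = 0.0180) and on bright probe sets (-0.37, adjusted p = 0.0202), and not when any 1 array was left out (adjusted p = 0.0599 to 0.248).

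Ptger2, the other prostaglandin E receptor that raises cyclic AMP, differed by 0.39, 0.09 and -0.24 at 6, 24 and 72 h. At 6 h its values were 3.84, 4.50 and 4.84 with DMSO and 4.54, 5.09 and 4.72 with PCB126, and the groups overlapped. At 72 h its PCB126 values of 4.79, 4.89 and 4.89 all lay below the DMSO values, the lowest of which was 4.90. Ptgfr, the prostaglandin F receptor, differed by 0.02, 0.36 and -0.12. Its groups did not overlap at 24 h (DMSO 4.15, 4.07 and 3.89, PCB126 4.43, 4.57 and 4.19), and the difference was not called (adjusted p = 0.365). The DMSO mean of Ptgfr at 24 h was 4.04, near the median level of all probe sets (4.03). Only 5 of 10 Ptgfr probe sets had a mean above that level, beside 7 of 9 for Ptger2 and 5 of 7 for Ptgir. Ptgir, the prostacyclin receptor, had the widest intervals of the 10 genes, with differences of 0.49, -0.19 and 0.12 (SE 0.400). Its 3 PCB126 arrays of 72 h read 5.55, 4.12 and 5.21, which spans the DMSO values of 4.36, 5.02 and 5.13.

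Groups that did not overlap were counted over the 10 genes. At 6 h 2 genes were higher without overlap (Ptgs2 and Pla2g4a) and 0 lower, beside 7.05% and 9.87% of all genes. At 24 h 3 were higher (Ptgs2, Hpgd and Ptgfr) and 1 lower (Ptger4), beside 9.11% and 12.7%. At 72 h 3 were higher (Ptgs2, Pla2g4a and Hpgd) and 2 lower (Ptgs1 and Ptger2), beside 9.52% and 10.7%. Apart from Ptgs2, none of the 10 genes had a change of the PCB126 effect between the times with an unadjusted p under 0.05, and 0 of 10 were called in that comparison.

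**Figure D3:**
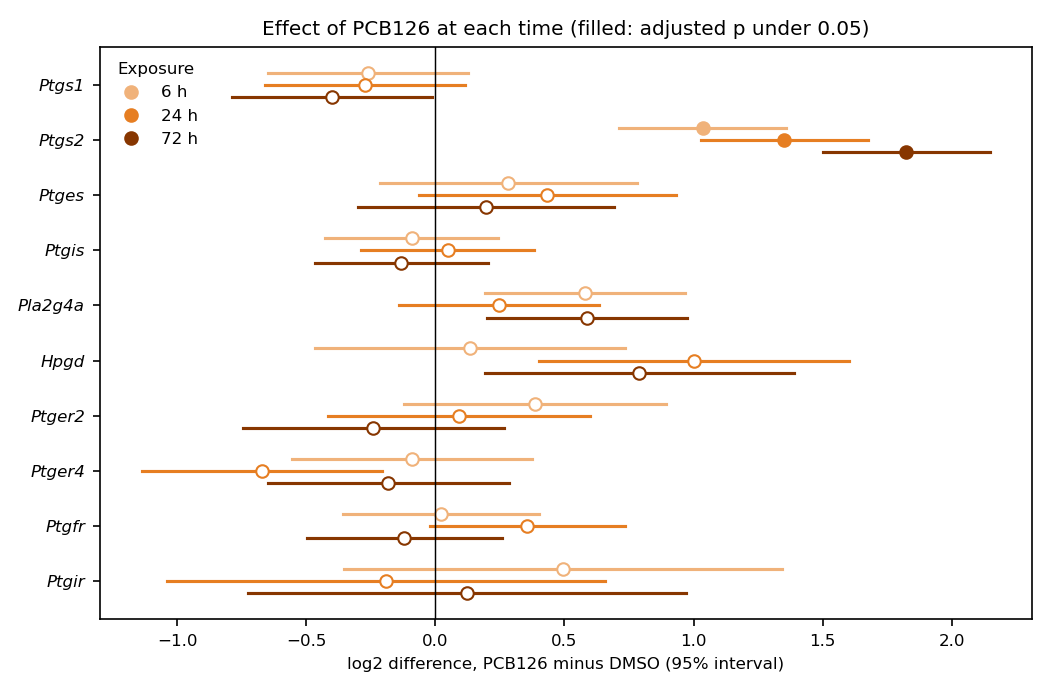
Difference between PCB126 and DMSO (x axis, log2) for the 10 genes (y axis) at 6, 24 and 72 h, as points with 95% intervals from the limma fit. Filled points passed an adjusted p of 0.05, which holds for Ptgs2 at 1.03, 1.35 and 1.82 and for no other point drawn.

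Other genes of eicosanoid metabolism were read beside these 10. Of 35 listed genes 34 were measured, and the counts were 0 higher and 0 lower at 6 h, 0 and 1 at 24 h, and 1 and 2 at 72 h. Over all genes 0.253% were called higher and 0.241% lower at 6 h, 1.7% and 3.14% at 24 h and 3.3% and 4.14% at 72 h, so the counts at 72 h are near the share of all genes. An unadjusted p under 0.05 by limma was found for 1, 7 and 8 of the 34 at 6, 24 and 72 h (2.94%, 20.6% and 23.5%), beside 8.31%, 15.4% and 18.6% of all genes. The list medians were -0.13, -0.044 and 0.055, beside -0.0068, -0.022 and 0.0015 over all genes. Mgll, which hydrolyses the endocannabinoid 2-arachidonoylglycerol and so frees arachidonic acid, fell at 24 h (-0.64, SE 0.149, adjusted p = 0.0187) and at 72 h (-0.57, adjusted p = 0.0270). Its values were 10.30, 10.51 and 10.15 with DMSO and 9.72, 9.80 and 9.52 with PCB126 at 24 h, and 9.68, 10.19 and 9.73 against 9.20, 9.38 and 9.31 at 72 h. At 6 h Mgll differed by -0.45 (adjusted p = 0.326), and with DMSO alone it fell by 0.56 from 6 to 72 h (adjusted p = 0.0477).

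Pla2g6, a calcium-independent phospholipase A2, fell at 72 h (-0.52, SE 0.149, adjusted p = 0.0421), from 7.37, 7.45 and 7.17 to 6.91, 6.60 and 6.90. Its differences at 6 and 24 h were -0.24 and -0.37 and were not called. Ptgds, a prostaglandin D synthase, was called higher at 72 h (0.64, adjusted p = 0.0205). That call did not hold with the mean over probe sets (0.03, adjusted p = 0.903) and turned on bright probe sets (-0.27, adjusted p = 0.580). Calls for Mgll at 24 and 72 h, Pla2g6 and Ptgds were all lost with the compared groups alone (adjusted p = 0.0757, 0.191, 0.183 and 0.109). Without PCB126 72 h replicate 1, Mgll, Pla2g6 and Ptgds were not called at 72 h (adjusted p = 0.0824, 0.0512 and 0.0836). The 72 h call of Mgll was also lost on leaving out replicate 2 of DMSO (adjusted p = 0.138) or replicate 3 of PCB126 (0.0659) at that time. Its 24 h call was lost on leaving out any of 4 arrays of that time, namely DMSO replicates 1 and 2 (0.0632 and 0.0912) and PCB126 replicates 1 and 3 (0.0517 and 0.0903). Ptgds lost it without DMSO 72 h replicate 3 (0.0921). Pla2g6 lost it without 1 of 11 arrays, with adjusted p up to 0.148 (without DMSO 72 h replicate 2).

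By group, the 9 genes of arachidonate release and reacylation had 0 higher at any time and 0, 1 and 2 lower. The 7 other prostanoid synthases had 1 higher at 72 h, Ptgds, and a median difference of 0.21 there. The 4 genes of prostaglandin inactivation and transport had none called, with differences between -0.31 and 0.27 at 72 h. The 5 genes grouped as other prostanoid receptors include Ptgfrn, which is named for regulating a receptor and is not one. These 5 and the 9 genes of the lipoxygenase and leukotriene branch had none called at 6, 24 or 72 h.

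**Figure D4:**
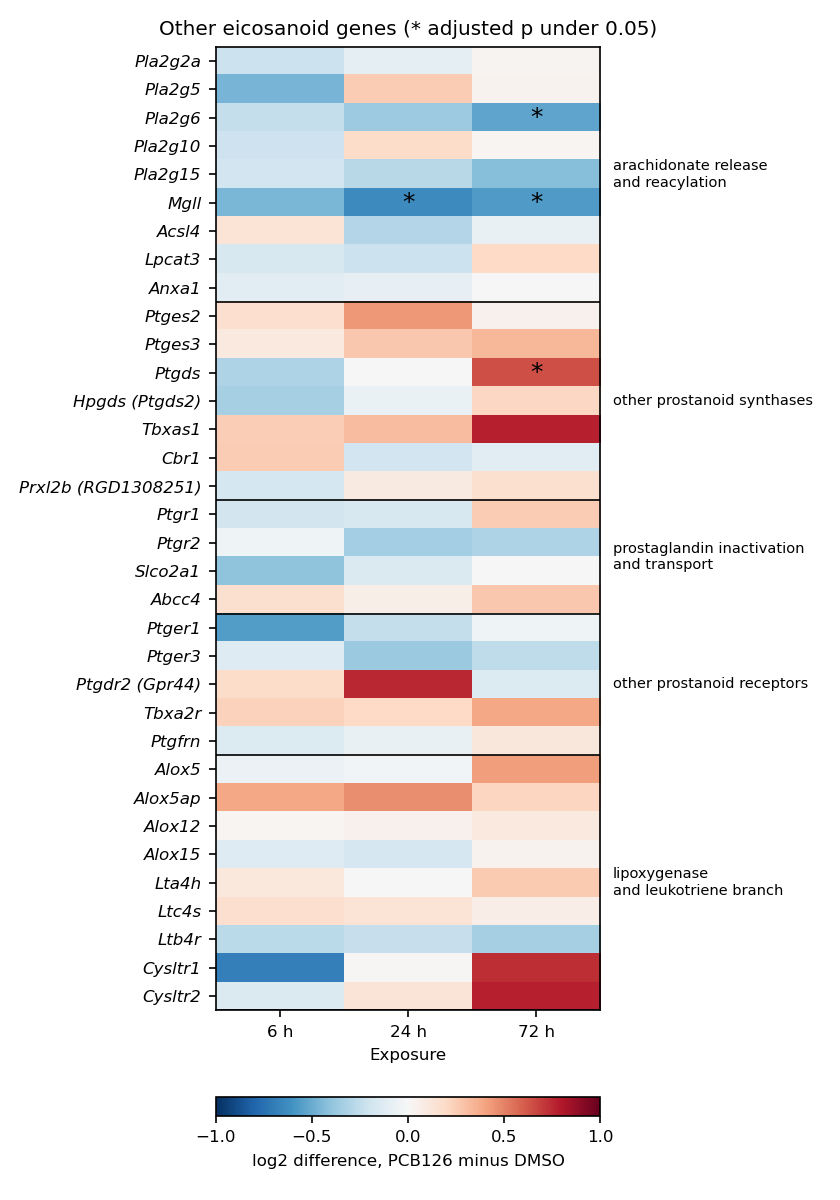
Difference between PCB126 and DMSO (colour, log2) for 34 other eicosanoid genes (rows, by group) at 6, 24 and 72 h (columns), with an asterisk for an adjusted p under 0.05. The 4 asterisks are those of Mgll at 24 and 72 h and of Pla2g6 and Ptgds at 72 h.

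The genes whose values ran most like those of Ptgs2 over the 18 arrays were Depdc7 (Pearson r = 0.964), Cpox, an enzyme of haem synthesis (0.961), and the mitochondrial creatine kinase Ckmt1 (0.958). They differed between PCB126 and DMSO by 0.93, 1.85 and 2.13 for Depdc7, 1.08, 1.80 and 1.94 for Cpox and 1.19, 1.92 and 2.70 for Ckmt1 at 6, 24 and 72 h. For Ptgs1 they were Calm3, a calmodulin gene (0.816), Il2ra, an interleukin 2 receptor subunit (0.804), and Pdc, the photoreceptor protein phosducin (0.788). The points are the same 18 arrays in 6 groups, so treatment and array scaling enter each correlation.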

How the data were processed

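Total RNA of 18 WB-F344 cultures was measured on Affymetrix rat exon arrays with biotin labelling, per the labels' protocols. The deposited values are log2 expression per probe set, for which the submitters' processing notes name RMA and Affymetrix Power Tools, version 1.12.0. RMA subtracts background, brings arrays to a shared distribution and combines a probe set's probes, and differences of dim probe sets come out too small. The table holds 1044112 probe sets, of which the platform annotation pairs 223110 with 1 symbol. Their median per symbol gave 16988 gene values. Left out were 3523 probe sets with more than 1 symbol and all without one. No genome build of the array was used. Precision is limited by the 3 arrays per group.

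Limma 3.58.1 in R 4.3.3 (matrixStats 1.5.0, and data.table, version 1.17.8) fitted 1 mean per group to all 18 arrays, with 12 residual and 3.89 prior degrees of freedom and no intensity trend. Tests were two-sided and moderated, adjusted over all genes by Benjamini-Hochberg, and called under 0.05. They compared PCB126 with DMSO at each time and on average, asked by F-test whether the effect differed between times, and compared DMSO at 24 and 72 h with 6 h. The fit was also run on simulated data with independent noise on each gene and array. Such data cannot show how it behaves when deviations are shared. No test was made over a gene list.

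The members and lists were chosen with earlier results of these data known. All 10 members are named, other pathway genes if called at 1 time or more, and for Ptgs1, Ptgs2 and members called at 2 times or more the 3 genes with the highest Pearson correlation. Of the 35 other pathway genes, Hpgds, Prxl2b and Ptgdr2 were matched by an older symbol and Ptgdr was not analysed here. Promoter sequences and names came from RefSeq's GRCr8 tables. Alternatives were a replicate block, other summaries and filters of probe sets and genes, 2 scalings, other settings of the prior, array weights, the compared groups alone and leaving out each array. Leaving out replicate 1 of PCB126 at 24 and 72 h together, and all settings for single genes on average over the times, were added after seeing the data.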

Additional observations from a re-analysis of the deposited data

How the results depend on the processing

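Ptgs2 was called at 24 and 72 h and on average under every alternative run, and at 6 h under every one except the fit with the compared groups alone. With 1 array left out its adjusted p rose to at most 0.0335, 5.82e-04 and 1.39e-05 at 6, 24 and 72 h. The fit with the compared groups alone was not run on average over the times or for the change between them, which need all groups. The count of the 10 genes called at 6 h was 0 with the compared groups alone. At 24 h it was 2 with the mean over probe sets and on bright probe sets (Ptger4 joining), with at least 4 probe sets, centring on the median of the genes, array weights, or without replicate 1 of PCB126 at 24 and 72 h together (Hpgd joining). At 72 h it was 2 among bright genes, with centring, renewed quantile normalisation or an intensity trend (Pla2g4a joining), and 3 with array weights (Pla2g4a and Hpgd). Leaving out 1 array gave 1 at 6 h, 1 to 2 at 24 h and at 72 h, 3 to 4 on average, 0 for DMSO at 24 h, 0 to 1 for DMSO at 72 h and 0 for the change between times. On average the other settings also gave 3 to 4. With the mean over probe sets Ptgs2 and Hpgd were higher and Ptgs1 and Ptger4 lower (16.2% of genes called). Bright probe sets (13.5%) and bright genes (16.6%, Hpgd excluded) gave Ptgs2 and Pla2g4a higher, with Ptger4 and Ptgs1 lower, respectively. Ptgis alone was called lower in DMSO at 72 h than at 6 h with the replicate block (4.65% of genes), bright probe sets (4.98%) or bright genes (7.01%). So it was with averaged probe sets (7.92%), at least 4 probe sets (5.37%) or array weights (7.68%).

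Calls over all genes moved too. At 72 h they were 7.44% of genes as reported, 10.7% of the 13420 bright genes, 8.36% with centring, 8.56% with quantile normalisation, 8.44% with an intensity trend, 11.04% with array weights and 2.45% with the compared groups alone. At 24 h they were 4.84% as reported, 7.39% with the mean over probe sets, 5.59% on bright probe sets, 5.84% with at least 4 probe sets, 5.57% with centring, 6.91% with array weights, 3.67% without both replicates 1 and 2.67% with the compared groups alone. At 6 h they were 0.494% as reported, 1.05% with the mean over probe sets, 0.995% with array weights and 0.0648% with the compared groups alone. For DMSO at 72 h against 6 h they were 4.14% as reported and 0.430% with the compared groups alone. The change between the times was called for 0.565% of genes and up to 1.8% with array weights. Centring moved the median of all genes at 72 h against 6 h in DMSO from -0.047 to 0.10.

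Of the other pathway genes, 1 was called at 6 h with the mean over probe sets (Mgll). At 24 h 0 were called with renewed quantile normalisation or the compared groups alone. At 72 h 0 were called with the compared groups alone, 5 with array weights, and 1 without replicate 1 of PCB126 at 24 and 72 h together (Ptgr2, lower). Leaving out 1 array gave 0 at 6 h, 0 to 1 at 24 h and 1 to 3 at 72 h. Ptgds at 72 h turned to -0.27 on bright probe sets. The cause of these changes was not tested.

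DMSO and PCB126 deviations at 1 time correlated at 0.0041 to 0.170 for the same replicate number, all 9 positive and 2 over 0.1. Other pairs gave -0.154 to 0.069. The cause was not tested. With the replicate block PCB126 against DMSO gave 1 of the 10 genes at each time. The shares of all genes called were then 0.453%, 5.17% and 7.75% at 6, 24 and 72 h.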
